A study of Mus musculus with 42 samples.

Results

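The 10 genes described here encode collagens, laminin chains and linker molecules of the basement membrane. They were chosen by name, with earlier results of these data known. They are the network collagens Col4a1 and Col4a2, the multiplexins Col15a1 and Col18a1, the laminin chains Lama4, Lama5, Lamb1 and Lamc1, and the linkers Nid1 and Hspg2. All 10 were found among the 54446 genes of the count table and all 10 were among the 15574 genes with enough counts to be tested. Liver RNA was sequenced from 42 female APOE*3-Leiden mice, a transgenic line with a human apolipoprotein E variant that clears lipoproteins poorly and that all groups carried. Each mouse gave 1 library at the endpoint of 32 weeks. Of these, 10 mice stayed on maintenance chow as the healthy reference. The other 32 mice, 8 to 14 weeks old at the start, first ate a Western-type diet (WTD) with 15% cocoa butter, 40.5% sucrose and 1% cholesterol during a run-in of 3 weeks, and were then divided into 16 mice on WTD alone and 16 mice on WTD with atorvastatin, a statin that inhibits HMG-CoA reductase. Atorvastatin was mixed into the food at 3.0 mg/kg/day and raised to 4.5 mg/kg/day at week 5, and from week 22 the WTD of both arms held 0.05% sodium cholate. The chow-fed mice carry the number series AZ in the labels and both WTD-fed arms the series Gen, so that the diet and the series cannot be told apart.

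Basement membranes are thin sheets of matrix under epithelia and around vessels, muscle and nerve, in which a laminin network and a collagen IV network are joined by nidogen and perlecan. A laminin is a trimer of an alpha, a beta and a gamma chain, and a collagen IV molecule is a trimer of alpha chains, most often of the products of Col4a1 and Col4a2. The sinusoids of the healthy liver lack a continuous basement membrane, while bile ducts and larger vessels have one, and deposition of such matrix along the sinusoids is known as capillarization.

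Col4a1 and Col4a2 lie head to head on chromosome 8 of GRCm38. Col4a1 spans chr8:11198423-11312826 on the minus strand and Col4a2 spans chr8:11312805-11449287 on the plus strand, and their annotated starts are 21 bp apart. The stretch that both first exons share is shown because the pair is transcribed in opposite directions from it, with a GC box (GGGCGG, or CCGCCC on the other strand) in capitals, 5′ to 3′ in the direction of each gene, as given by RefSeq for GRCm38.p6.
Col4a2, chr8:11312805-11312826, plus strand: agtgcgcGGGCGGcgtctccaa
Col4a1, chr8:11312805-11312826, minus strand: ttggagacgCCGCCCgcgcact

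The bases before the start sites of Nid1, Col15a1 and Col18a1 are shown because Nid1 had the largest rise on WTD, Col18a1 was the member that fell, and Col15a1 is the closest relative of Col18a1 and rose. Bases in annotated exons were left out, and capitals mark matches to CCAAT, which reads ATTGG on the opposite strand, or to the GC box.
Nid1, chr13:13437352-13437550, plus strand: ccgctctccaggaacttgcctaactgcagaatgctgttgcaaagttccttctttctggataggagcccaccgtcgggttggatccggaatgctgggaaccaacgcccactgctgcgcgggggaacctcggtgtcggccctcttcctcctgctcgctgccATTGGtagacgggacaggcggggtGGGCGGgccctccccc
Col15a1, chr4:47207762-47208011, plus strand: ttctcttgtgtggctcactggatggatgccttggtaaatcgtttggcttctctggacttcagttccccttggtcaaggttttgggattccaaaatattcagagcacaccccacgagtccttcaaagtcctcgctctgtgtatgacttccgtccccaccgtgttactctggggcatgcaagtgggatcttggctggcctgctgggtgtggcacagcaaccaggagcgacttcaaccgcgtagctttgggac
Col18a1, chr10:77166549-77166780, minus strand: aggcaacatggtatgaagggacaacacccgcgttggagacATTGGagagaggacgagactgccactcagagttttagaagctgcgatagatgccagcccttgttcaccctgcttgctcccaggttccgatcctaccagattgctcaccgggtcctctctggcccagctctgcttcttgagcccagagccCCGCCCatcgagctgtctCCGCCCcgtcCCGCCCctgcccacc

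RefSeq gave windows of 300 bases, 250 before and 50 after a start site, for 8 of the 10 genes, with 2 windows for Col18a1. Lama4 and Lamc1 had no window. The GC box was found in 7 of the 9 windows and in 35.7% of all 32851 windows of the same length, and CCAAT was found in 5 of the 9 and in 37.4% of all. The windows of Col4a1 and Col4a2 overlap. The 1 GC box of the Col4a1 window lies in the stretch shown above and counts in both windows. Neither TATAAA, searched on both strands and held by 13.6% of all windows, nor the AP-1 letters TGANTCA, held by 7.81%, occurred in a window of these genes. The Col15a1 window held none of the 4 motifs, and neither did the second window of Col18a1, at chr10:77113656-77113955. The Col15a1 window ends at chr4:47208061 and does not cover the annotated start of the gene at chr4:47208161. Motif matches are letters only and were not tested for use. Col18a1 is known to be read from more than 1 start site, and counts per gene do not tell its transcripts apart.

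The gene counts of a mouse summed to 15661381 at the lowest and 36224054 at the highest. Levels are given as CPM, the count of a gene relative to the total of its library, scaled to library size by the TMM method of edgeR, and a log2 fold change of 1 is a doubling. In 8 libraries, 3 from chow, 4 from WTD and 1 from WTD with atorvastatin, over 20% of the genes at a mean of 1 to 2 CPM had no count, up to 59.7% in the chow-fed mouse AZ#2. The WTD-fed mouse Gen#20 stood apart from its group: it had the lowest level of 6 of the 10 genes among the 16 WTD-fed mice, the highest level of Col18a1, and the highest sum of hepatocyte markers (Alb, Ttr, Tat, Cps1, Ass1 and Trf) at 93663 CPM, where the group median was 55515 CPM. The treated mouse Gen#25 had the highest level of 6 of the 10 genes in its group. Values without such mice are given where they change a call. In bulk tissue, a lower number of cells of a type and less RNA per cell cannot be told apart.

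On WTD, 9 of the 10 genes rose and 1 fell compared with chow, by edgeR's quasi-likelihood test over all 42 mice with Benjamini-Hochberg adjusted p under 0.01 (called). Over all 15574 tested genes, 17.5% were called higher and 16.0% lower. The median log2 fold change of the 10 genes was 1.03, and that of all tested genes was 0.03. In 3 of the genes, Col4a1, Col4a2 and Nid1, every WTD-fed mouse lay above every chow-fed mouse, which was so for 3.40% of all tested genes.

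With atorvastatin, 1 of the 10 genes, Col18a1, was called higher than on WTD and none was called lower, while 4.84% of all tested genes were called higher and 2.26% lower. The split over all genes depends on the scaling, at 754 higher and 352 lower here, 582 and 479 with RLE normalization and 712 and 688 with DESeq2. For 7 of the 10 genes the log2 fold change was negative, with a median over the 10 of -0.26 and over all tested genes of 0.00157. At an unadjusted p under 0.05, 6 of the genes were lower and 1 was higher, where 24.5% of all tested genes (3822) passed in either direction. DESeq2 also called Col18a1 alone, and limma-voom with sample quality weights called 6, with Col4a1, Col4a2, Col15a1, Lama5 and Nid1 lower, while it called 1835 of all genes higher and 1310 lower. No gene, among these 10 or among all tested genes (0%), had every treated mouse below every WTD-fed mouse.

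Compared with chow, the treated mice had 8 of the 10 genes higher and none lower, where 14.2% and 10.7% of all tested genes were called higher and lower. In Col4a1, Col4a2, Nid1 and Hspg2 every treated mouse lay above every chow-fed mouse, a separation seen in 2.88% of all tested genes. These comparisons share mice: the 16 WTD-fed mice stand in the first and the second, and the 10 chow-fed mice in the first and the third.

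**Figure D1:**
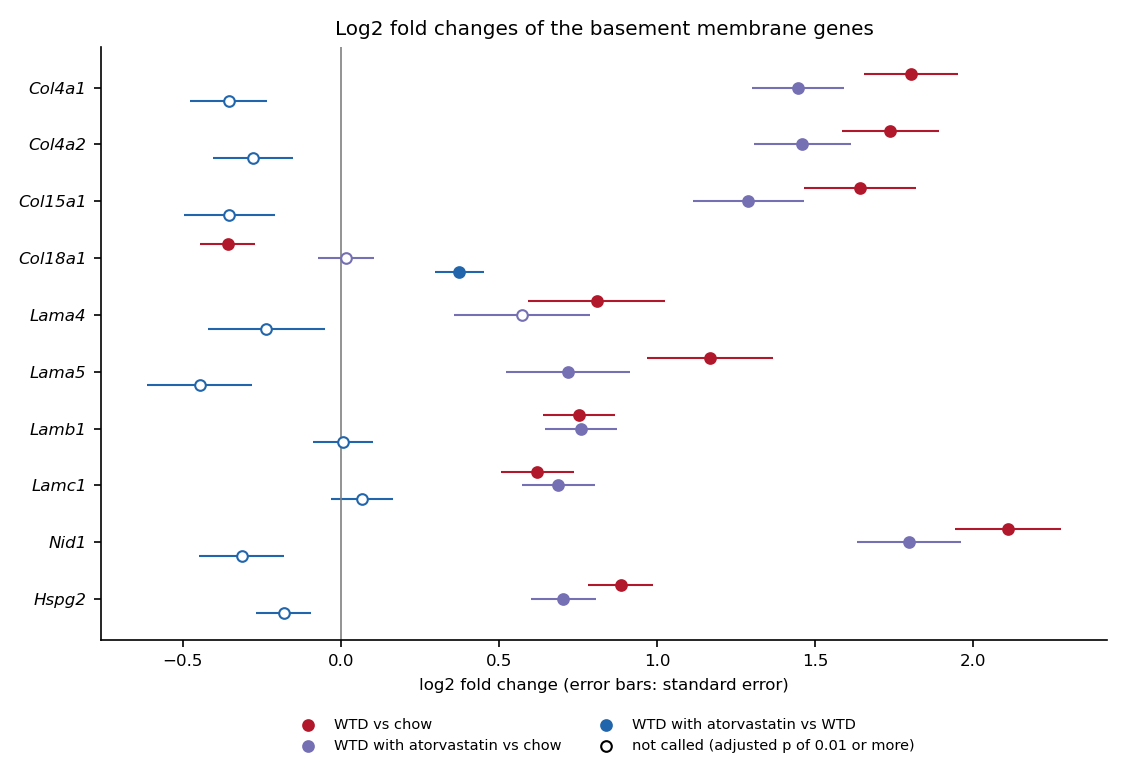
Log2 fold changes (horizontal axis) of the 10 basement membrane genes in the 3 comparisons, with standard errors as bars. Filled points passed an adjusted p under 0.01 and open points did not. WTD against chow is filled for all 10 genes, with Col18a1 alone on the negative side at -0.36, and atorvastatin against WTD is filled for Col18a1 alone, at 0.37.

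Collagen IV forms the covalent scaffold that gives a basement membrane its tensile strength. Col4a1 lay between 33.3 and 77.9 CPM on chow (median 54.7), between 104 and 252 CPM on WTD (median 192) and between 95.5 and 264 CPM with atorvastatin (median 134). The levels of chow-fed mice stayed under those of all WTD-fed mice, treated or not, and the lowest WTD-fed mouse, Gen#20, was far under the next at 161 CPM. Mean levels were 3.49 times as high on WTD as on chow, a log2 fold change of 1.80 (SE 0.15, adjusted p = 5.1e-14). With atorvastatin 14 of 16 mice were below the WTD median, and the log2 fold change was -0.36 (SE 0.12, adjusted p = 0.0413), which did not pass the threshold of 0.01. Without the treated mouse Gen#25, which had the highest level of all 42 mice, it was -0.43 and passed (adjusted p = 0.00534).

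Col4a2, the second chain of the common collagen IV trimer, had 22.7 to 47.5 CPM on chow (median 34.2), 66.1 to 149 CPM on WTD (median 119) and 55.2 to 177 CPM with atorvastatin (median 87.9). As for Col4a1, chow-fed mice did not overlap with either WTD-fed group, and treated and untreated mice overlapped widely. The log2 fold change was 1.74 on WTD against chow (SE 0.15, adjusted p = 6.9e-13), -0.28 with atorvastatin against WTD (SE 0.13, adjusted p = 0.154) and 1.46 with atorvastatin against chow (SE 0.15, adjusted p = 1.6e-10). For Col4a1 the last of these was 1.45 (SE 0.15, adjusted p = 4.5e-11).

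The ratio of the 2 chains within a mouse was alike in the groups. The log2 ratio of Col4a2 to Col4a1 in CPM was -0.64 ± 0.35 (SD, n = 10) on chow, -0.71 ± 0.16 (n = 16) on WTD and -0.65 ± 0.16 (n = 16) with atorvastatin. None of its 3 differences, of -0.07, 0.06 and -0.01, passed a permutation test (adjusted p = 0.655, 0.454 and 0.972 over 21 ratio tests), which does not show that the ratios were equal. Per kb of exon, Col4a1 made up 53.2% ± 4.6 of all collagen IV transcripts on chow, 53.6% ± 3.1 on WTD and 54.0% ± 2.6 with atorvastatin (SD). Summed over the 6 collagen IV genes, the level rose from 13.7 ± 2.5 CPM per kb on chow to 47.8 ± 8.1 on WTD, and was 37.1 ± 11.8 with atorvastatin. Col4a5, an alpha chain of other collagen IV trimers, made up 3.76% ± 1.94, 6.10% ± 1.44 and 4.85% ± 1.08 of that sum.

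**Figure D2:**
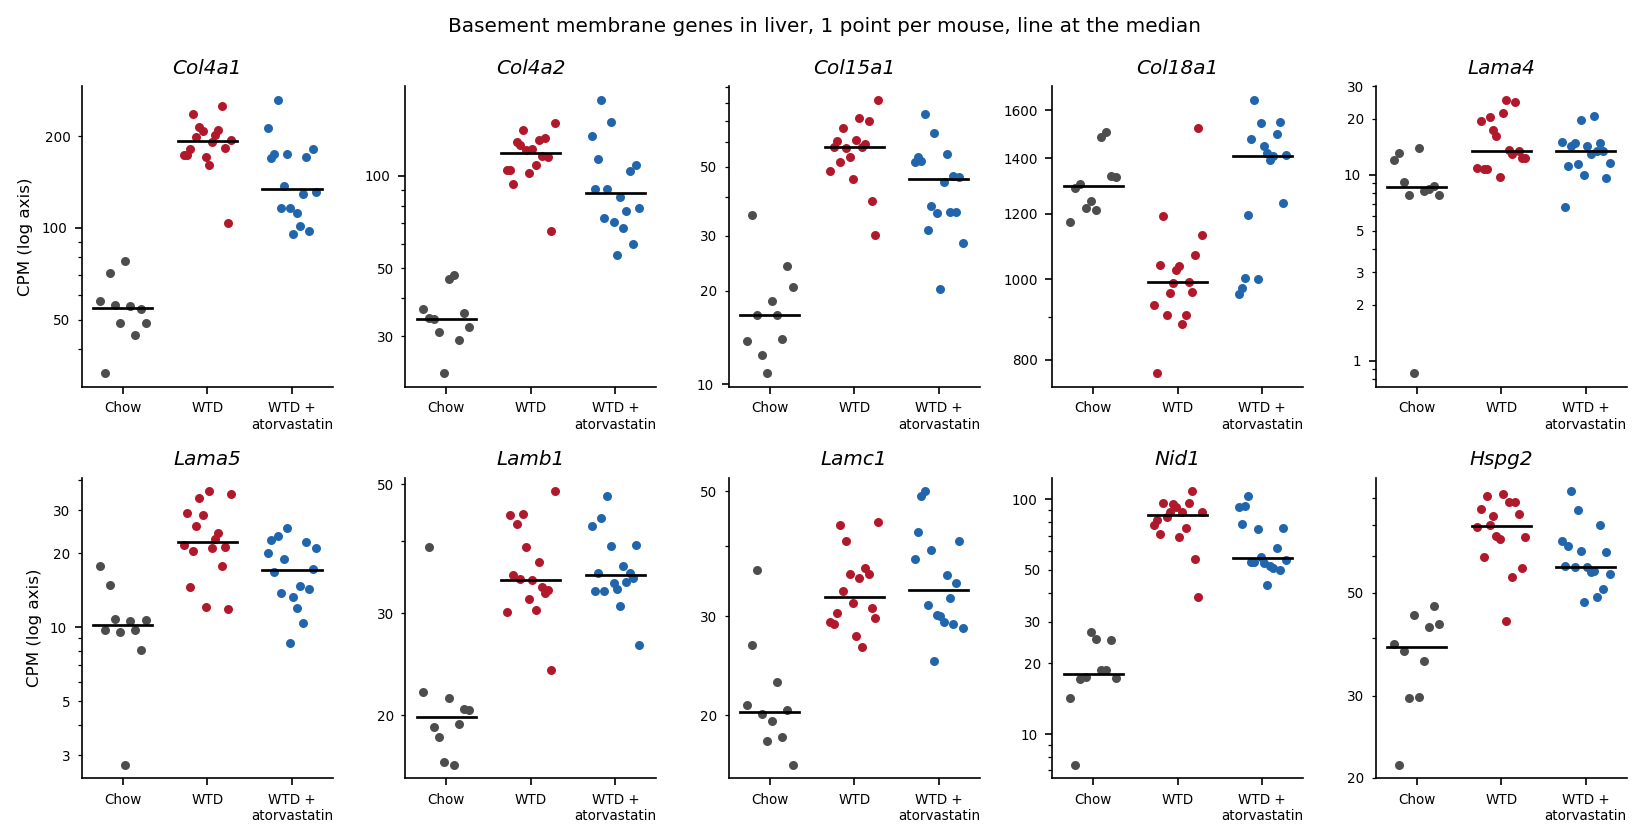
CPM on a log axis for each of the 10 genes in 10 chow-fed, 16 WTD-fed and 16 atorvastatin-treated WTD-fed mice, with 1 point per mouse and a line at the group median. Chow-fed mice lie under all WTD-fed mice in Col4a1, Col4a2 and Nid1, and in Col18a1 the WTD group has the lowest median, 992 CPM.

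Col15a1 and Col18a1 encode the multiplexins, proteoglycan collagens with an interrupted triple helix. Col15a1 anchors the basement membrane to the matrix beneath it and lies at chr4:47208161-47313167 on the plus strand. Col15a1 had 10.9 to 34.9 CPM on chow (median 16.7), 30.2 to 81.9 CPM on WTD (median 57.7) and 20.3 to 73.7 CPM with atorvastatin (median 45.5). Only the chow-fed mouse AZ#2 reached the range of the WTD-fed mice, and 15 of 16 WTD-fed mice were above every chow-fed mouse. The log2 fold change was 1.64 on WTD against chow (SE 0.18, adjusted p = 1.3e-10), -0.35 with atorvastatin against WTD (SE 0.14, adjusted p = 0.105) and 1.29 with atorvastatin against chow (SE 0.17, adjusted p = 7.5e-08).

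Col18a1, from whose C-terminal end the fragment endostatin is released, lies at chr10:77052178-77166548 on the minus strand and is known to be made in the liver by hepatocytes as well as by other cells. It had 1172 to 1506 CPM on chow (median 1296), 771 to 1524 CPM on WTD (median 992) and 960 to 1647 CPM with atorvastatin (median 1409). The groups overlapped, but 14 of 16 WTD-fed mice lay below every chow-fed mouse, and the highest WTD-fed mouse was Gen#20. Of the treated mice, 14 of 16 were above the WTD median, and 4 of 16 were below every chow-fed mouse. Col18a1 fell by 0.36 on the log2 scale on WTD compared with chow (SE 0.09, adjusted p = 0.00061), and was 0.37 higher with atorvastatin than on WTD (SE 0.08, adjusted p = 0.00056). Without Gen#20 these values were -0.41 and 0.42. Between treated and chow-fed mice the log2 fold change was 0.02 (SE 0.09, adjusted p = 0.919).

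Since one multiplexin rose and the other fell, their ratio moved more than either. The log2 ratio of Col15a1 to Col18a1 in CPM was -6.24 ± 0.50 (SD, n = 10) on chow, -4.19 ± 0.51 (n = 16) on WTD and -4.94 ± 0.67 (n = 16) with atorvastatin. The difference of 2.06 between WTD and chow had an adjusted permutation p of 4.2e-05, from the smallest p that 100000 permutations can give, and all 16 WTD-fed mice were above the chow median. With atorvastatin the ratio was 0.76 lower than on WTD, with 14 of 16 mice below the WTD median (difference -0.76, adjusted permutation p = 0.00352). Hepatocyte markers moved with Col18a1: 5 of the 6 were tested, and 5 of 5 were called lower on WTD than on chow and 5 of 5 higher with atorvastatin than on WTD. Their summed level ranged from 92040 to 139883 CPM on chow, 40778 to 93663 CPM on WTD and 55183 to 116042 CPM with atorvastatin, and their part in the result was not tested.

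**Figure D3:**
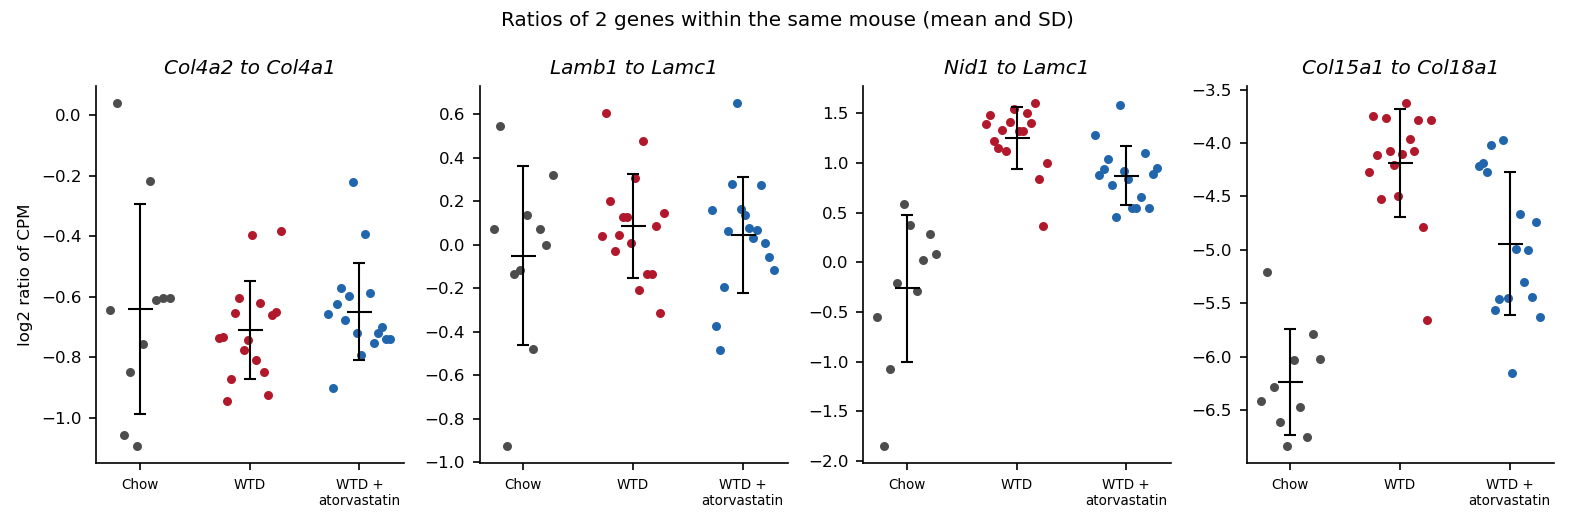
Log2 ratios of the CPM of 2 genes within the same mouse, for 10 chow-fed, 16 WTD-fed and 16 treated mice, with group mean and SD in black. Col4a2 to Col4a1 and Lamb1 to Lamc1 overlap in all groups, while Nid1 to Lamc1 and Col15a1 to Col18a1 are highest on WTD, at means of 1.25 and -4.19.

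Laminin alpha chains carry the binding sites for cell surface receptors, and Lama4 is known for vessels and Lama5 for mature epithelia and vessels. Lama4 lies at chr10:38965515-39110188 on the plus strand and had 0.859 to 14.0 CPM on chow (median 8.58), 9.80 to 25.4 CPM on WTD (median 13.5) and 6.74 to 20.8 CPM with atorvastatin (median 13.4). All 16 WTD-fed mice were above the chow median, but only 7 of 16 were above every chow-fed mouse. Lama4 rose on WTD by 0.81 (SE 0.22, adjusted p = 0.0018). The log2 fold change was -0.24 with atorvastatin against WTD (SE 0.18, adjusted p = 0.488) and 0.57 with atorvastatin against chow (SE 0.22, adjusted p = 0.0329). The last of these passed without the 8 libraries that missed weak genes (0.62, adjusted p = 0.00293).

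Lama5, at chr2:180176373-180225859 on the minus strand, had 2.75 to 17.9 CPM on chow (median 10.2), 11.9 to 35.9 CPM on WTD (median 22.4) and 8.66 to 25.4 CPM with atorvastatin (median 17.1). The chow and WTD ranges overlapped, with 12 of 16 WTD-fed mice above every chow-fed mouse. Its log2 fold changes were 1.17 on WTD against chow (SE 0.20, adjusted p = 2.8e-06), -0.45 with atorvastatin against WTD (SE 0.17, adjusted p = 0.0685) and 0.72 with atorvastatin against chow (SE 0.20, adjusted p = 0.0030). The last did not pass with the share of missed weak genes as a covariate (0.66, adjusted p = 0.0134). Among the 5 laminin alpha chains, Lama5 made up 31.0% ± 8.5 of the summed CPM per kb on chow, 41.9% ± 8.5 on WTD and 34.2% ± 8.4 with atorvastatin (SD), and Lama4 made up 26.6% ± 13.0, 26.7% ± 6.0 and 25.3% ± 5.8. The share of Lama1, the chain of embryonic laminin, was 31.0% ± 12.3, 13.5% ± 8.0 and 25.1% ± 9.6. The order of Lama5 and Lama4 depends on the length used, which here is the union of exons. With the longest transcript as the length, Lama4 was above Lama5 in each group. Their mean CPM per kb was then 1.49 and 0.919 on chow, 2.61 and 2.06 on WTD, and 2.21 and 1.51 with atorvastatin.

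Lamb1, the beta chain, and Lamc1, the gamma chain of most laminins, are found together in many laminin trimers. Lamb1, at chr12:31265234-31329644 on the plus strand, had 16.4 to 39.0 CPM on chow (median 19.9), 24.0 to 48.6 CPM on WTD (median 34.3) and 26.4 to 47.7 CPM with atorvastatin (median 34.8). Lamc1, at chr1:153218922-153332786 on the minus strand, had 16.3 to 36.2 CPM on chow (median 20.3), 26.4 to 44.0 CPM on WTD (median 32.4) and 24.9 to 50.0 CPM with atorvastatin (median 33.3). The chow-fed mouse AZ#2 lay within the WTD range in Lamb1, as AZ#2 and AZ#3 did in Lamc1, and the other chow-fed mice were below every WTD-fed mouse. Lamb1 rose by 0.75 on WTD against chow (SE 0.11, adjusted p = 1.7e-07), and Lamc1 rose by 0.62 (SE 0.12, adjusted p = 1.2e-05). With atorvastatin against WTD the values were 0.0067 (SE 0.096, adjusted p = 0.979) for Lamb1, whose sign turned in 5 of 9 alternative fits, and 0.07 (SE 0.10, adjusted p = 0.764) for Lamc1. Against chow the treated mice were higher by 0.76 in Lamb1 (SE 0.11, adjusted p = 2.8e-07) and by 0.69 in Lamc1 (SE 0.12, adjusted p = 3.6e-06).

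The log2 ratio of Lamb1 to Lamc1 was -0.05 ± 0.41 (SD, n = 10) on chow, 0.08 ± 0.24 (n = 16) on WTD and 0.04 ± 0.27 (n = 16) with atorvastatin, and none of its 3 differences passed (adjusted permutation p = 0.454 to 0.754). Lamb1 was 36.1% ± 5.8 of the 3 beta chains per kb on chow, 39.4% ± 5.5 on WTD and 41.6% ± 2.9 with atorvastatin, with Lamb2 the largest at 46.0%, 46.1% and 45.6%. The length used is the union of exons, 9917 bp for Lamb1, whose longest transcript has 5784 bp. Shares with the longest transcript were not computed, so that the order of Lamb1 and Lamb2 may depend on the length. These shares are descriptions and were not tested.

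**Figure D4:**
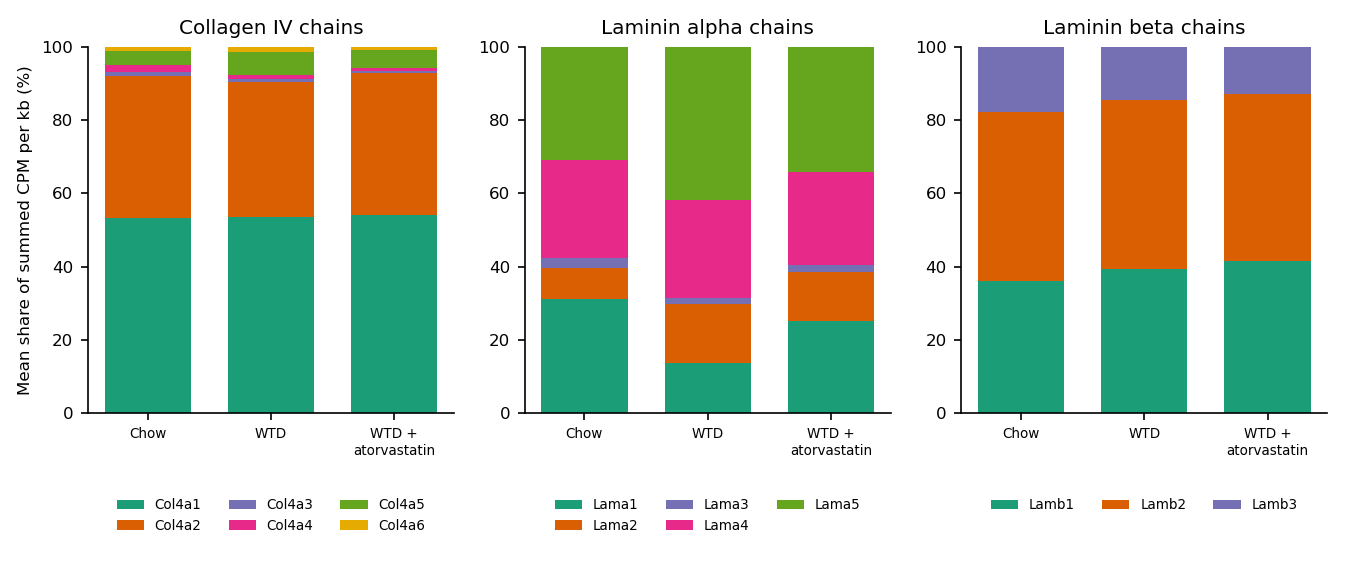
Mean share of each chain in the summed CPM per kb of exon (vertical axis, percent) of its family, for collagen IV and for the laminin alpha and beta chains in the 3 groups. The share of Col4a1 stays between 53.2% and 54.0%, while Lama5 has its largest share on WTD, 41.9%, and Lama1 its smallest there, 13.5%. Lengths are the union of exons, and shares with the longest transcript were not computed.

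Nid1 encodes nidogen-1, which bridges the laminin and collagen IV networks, and lies at chr13:13437551-13512269 on the plus strand. It had 7.41 to 27.1 CPM on chow (median 18.1), 38.3 to 108 CPM on WTD (median 86.0) and 42.9 to 103 CPM with atorvastatin (median 56.1). No chow-fed mouse overlapped with a WTD-fed mouse, treated or not, and the mean was 4.32 times as high on WTD as on chow. The log2 fold change of Nid1, 2.11 (SE 0.17, adjusted p = 2.3e-14), was the largest of the 10 genes. With atorvastatin 13 of 16 mice were below the WTD median, with a log2 fold change of -0.31 (SE 0.13, adjusted p = 0.123), and against chow it was 1.80 (SE 0.17, adjusted p = 4.4e-12).

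Nidogen-1 binds the laminin gamma-1 chain, and its transcript rose more than that of Lamc1. The log2 ratio of Nid1 to Lamc1 was -0.26 ± 0.74 (SD, n = 10) on chow, 1.25 ± 0.31 (n = 16) on WTD and 0.87 ± 0.30 (n = 16) with atorvastatin. The difference between WTD and chow was 1.51 (adjusted permutation p = 4.2e-05), and 16 of 16 WTD-fed mice were above the chow median. Between treated and untreated mice it was -0.38 (adjusted permutation p = 0.0038), and 15 of 16 treated mice were below the WTD median. Nid1 against WTD alone did not pass its own test, as given above.

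Hspg2 encodes perlecan, the heparan sulfate proteoglycan of basement membranes, and lies at chr4:137468769-137570630 on the plus strand. It had 21.3 to 46.8 CPM on chow (median 38.2), 43.4 to 81.6 CPM on WTD (median 69.5) and 47.8 to 82.8 CPM with atorvastatin (median 57.0). The WTD-fed mouse Gen#13 alone reached into the chow range, while every treated mouse was above it. Hspg2 rose by 0.88 on WTD (SE 0.10, adjusted p = 4.1e-10) and was 0.70 higher with atorvastatin than on chow (SE 0.10, adjusted p = 2.1e-07). The difference between treated and untreated mice was -0.18 (SE 0.09, adjusted p = 0.187). The log2 ratio of Hspg2 to Lamc1 differed by 0.26 between WTD and chow and by -0.23 between treated and untreated mice, and neither passed (adjusted permutation p = 0.295 and 0.0875).

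Per kb of exon, Col18a1 had the highest level in all groups, at 186 ± 16 CPM per kb on chow, 145 ± 24 on WTD and 188 ± 33 with atorvastatin (SD). Col4a1 came next, with 7.33 ± 1.69 on chow, 25.6 ± 4.5 on WTD and 20.0 ± 6.2 with atorvastatin, and Col4a2 followed it in each group. On chow, Col15a1, Nid1, Lamc1, Hspg2 and Lamb1 followed between 2.87 and 2.15 CPM per kb, and neighbours in this order were closer than their SD. On WTD, Nid1 at 11.8 ± 2.5 and Col15a1 at 8.96 ± 2.00 stood above Hspg2 at 4.77 ± 0.75, which was within 1 SD of Lamc1. Lama5 and Lama4 were lowest in each group, at 0.919 and 0.747 CPM per kb on chow and 2.06 and 1.31 on WTD. With the longest transcript as the length, the level of Lama4 on chow was 1.49 and that of Lamb1 3.68 CPM per kb, so that the order of the lower genes depends on the length used.

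Fibrillar collagens, the scar collagens of the liver, are given for reference, and all 5 of those listed (Col1a1, Col1a2, Col3a1, Col5a1 and Col5a2) were called higher on WTD than on chow, with a median log2 fold change of 2.83. Col1a1, the chain of collagen I, went from a median of 30.9 CPM on chow to 384 CPM on WTD and 184 CPM with atorvastatin. Within a mouse the log2 ratio of Col4a1 to Col1a1 was 0.79 ± 0.57 (SD, n = 10) on chow, -1.02 ± 0.26 (n = 16) on WTD and -0.51 ± 0.39 (n = 16) with atorvastatin. The difference between WTD and chow was -1.81 (adjusted permutation p = 4.2e-05), and 16 of 16 WTD-fed mice were below the chow median. Between treated and untreated mice it was 0.51 (adjusted permutation p = 0.0006), and 14 of 16 treated mice were above the WTD median. Col4a1 thus rose less than Col1a1 on WTD. Of the fibrillar collagens, Col1a2 was called lower with atorvastatin than on WTD, with a log2 fold change of -0.77 (SE 0.17, adjusted p = 0.0018).

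Of 30 other genes for basement membrane chains and linkers, 15 were called higher and 1 lower on WTD than on chow, with a median log2 fold change of 0.77, and 1 was called higher and 1 lower with atorvastatin than on WTD, with a median of -0.30. Sparc, a collagen-binding matricellular protein, rose by 1.70 on WTD (SE 0.13, adjusted p = 8.2e-16) and was lower with atorvastatin, at -0.57 (SE 0.10, adjusted p = 0.00015). Col4a5 rose by 2.51 (SE 0.28, adjusted p = 1.5e-10), Smoc2 by 1.95 and Tgfbi by 1.06. Smoc1, a calcium-binding basement membrane glycoprotein, went the other way, falling by 0.46 on WTD (SE 0.08, adjusted p = 7.3e-06) and being 0.32 higher with atorvastatin (SE 0.07, adjusted p = 0.0020). Nid2, the paralog of Nid1 (chosen after its values were seen), was not called on WTD, at -0.06 (SE 0.17, adjusted p = 0.79).

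Among 12 receptor genes, 7 were called higher and 1 lower on WTD than on chow, with a median of 0.58, and with atorvastatin 1 was lower and none higher than on WTD. Itgb1, the integrin beta chain shared by most collagen and laminin receptors, rose by 0.66 (SE 0.06, adjusted p = 4.1e-13), from a median of 151 to 254 CPM. Ddr1, a collagen-binding receptor tyrosine kinase, rose by 1.99 (SE 0.23, adjusted p = 3.7e-10). Sdc4, a heparan sulfate proteoglycan of the cell surface, fell by 0.52 (SE 0.09, adjusted p = 3.6e-06). Itga2 rose too, but 7 of 10 chow-fed mice had 0 CPM and the WTD median was 2.57 CPM. Cd151, a tetraspanin partner of laminin-binding integrins, was called lower with atorvastatin than on WTD, at -0.29 (SE 0.08, adjusted p = 0.0097). In that comparison 7 of the 12 had an unadjusted p under 0.05, against 24.5% of all tested genes.

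Of 10 genes for the modification, folding and export of collagen IV and laminin, 4 were called higher and 2 lower on WTD than on chow. Serpinh1, the collagen chaperone HSP47, rose by 1.28 (SE 0.16, adjusted p = 5.9e-09), and Colgalt1, a collagen galactosyltransferase, rose by 0.99 (SE 0.09, adjusted p = 5.4e-14). Mia3, which is needed for the export of large collagens from the endoplasmic reticulum, fell by 0.60 (SE 0.08, adjusted p = 4.3e-08), and P4hb, a subunit of prolyl 4-hydroxylase and a general disulfide isomerase, fell by 0.45 (SE 0.07, adjusted p = 8.9e-08). With atorvastatin Mia3 was 0.36 higher (SE 0.07, adjusted p = 0.00067) and Serpinh1 was lower, at -0.49 (SE 0.13, adjusted p = 0.0089), than on WTD.

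Several cell types can make these genes, and their markers moved too. All 6 cholangiocyte markers (among them Krt7, Krt19, Epcam and Sox9) were called higher on WTD than on chow and none was called in the treated mice against WTD (4 of the 6 had an unadjusted p under 0.05, against 24.5% of all tested genes). Their summed level was 17.9 to 37.5 CPM on chow, 29.4 to 113 CPM on WTD and 31.0 to 98.7 CPM with atorvastatin. Of 6 stellate cell markers Pdgfrb and Hand2 were higher on WTD, with sums of 80.5 to 286, 165 to 272 and 194 to 292 CPM (medians 152, 234 and 226). The highest chow sum was that of AZ#1, which had 192 CPM of Des, where the chow median of Des was 13.8 CPM. Of 7 sinusoidal endothelium markers Lyve1 was higher and Clec4g, Gpr182 and Fcgr2b lower, with sums of 274 to 424, 218 to 344 and 249 to 374 CPM. Of 5 continuous endothelium markers Cd34 alone was called higher on WTD, with a median of 2.92 CPM on chow and 18.5 CPM on WTD (adjusted p = 2.2e-11), and the sums were 94.9 to 161, 96.7 to 169 and 118 to 175 CPM. Plvap gave the largest part of these sums, with a median of 90.6 CPM on chow, where the sum had a median of 111 CPM. Of 6 macrophage markers Adgre1, Cd68, Csf1r and Trem2 were higher on WTD, with sums of 162 to 339, 496 to 797 and 402 to 719 CPM. Of 3 smooth muscle markers tested Myh11 was lower and none higher, and of 5 mesothelium and portal fibroblast markers Thy1 was higher. With atorvastatin against WTD, the markers called higher beside those of hepatocytes were Reln of stellate cells (0.47), Plvap of the continuous endothelium list (0.50), Clec4g, Gpr182 and Flt4 of sinusoidal endothelium (0.59, 0.41 and 0.38) and Clec4f of macrophages (0.62). Those called lower were Pdgfrb of stellate cells (-0.61), Cd34 of continuous endothelium (-0.94) and Cd68 and Trem2 of macrophages (-0.56 and -0.97). No marker of these lists was at 0 in every mouse, but the hepatocyte marker Trf was nearly absent and was not among the tested genes. It had 0 CPM in 10 chow-fed, 14 WTD-fed and 15 treated mice, and its highest level was 0.409 CPM, in a treated mouse. The reason for these low counts was not tested. The part of any cell type in the results was not tested either.

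Over the mice of a group, the other genes were set against Col4a1 on the log2 scale, which gave 27 relations tested together by permutation. None of 9 passed an adjusted p under 0.05 on chow (n = 10), with r from -0.55 to 0.61. On WTD (n = 16) 3 of 9 passed, for Nid1 (r = 0.86, rho = 0.74, adjusted permutation p = 0.00189 and 0.0122), Col4a2 (r = 0.83, rho = 0.72, adjusted permutation p = 0.0060 and 0.0122) and Col15a1 (r = 0.65, rho = 0.30, adjusted permutation p = 0.0377 and 0.467). Without the 2 mice farthest from the median of Col4a1, one of which was Gen#20, r was 0.55, 0.55 and 0.13 and none of the 3 passed, so that passing on r rests on those mice, and for Col15a1 rho did not pass with them either. Without the libraries that missed weak genes r was 0.91, 0.93 and 0.79. Lamc1 missed the threshold on r with all mice (r = 0.16 on chow and 0.53 on WTD), though its rho on WTD passed (rho = 0.67, adjusted permutation p = 0.0203), and r passed without the 2 farthest, with r of 0.91 on chow and 0.71 on WTD (adjusted permutation p = 0.0322 for both).

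With atorvastatin (n = 16) 6 of 9 passed, and r was 0.94 for Col4a2, 0.90 for Nid1, 0.71 for Col15a1, 0.71 for Hspg2, 0.68 for Lama5 and -0.68 for Col18a1, with rho of 0.95, 0.89, 0.61, 0.72, 0.69 and -0.61. The adjusted permutation p was 0.00027 for Col4a2 and for Nid1, and 0.0089 to 0.0151 for the other 4. Without the 2 farthest mice Col4a2 (r = 0.90) and Nid1 (r = 0.82) still passed and the other 4 did not. The treated mice had a gap in Col4a1 between 137 and 169 CPM, with 9 mice below and 7 above. Below and above it, r was 0.85 and 0.78 for Col4a2, 0.24 and 0.73 for Nid1, and 0.07 and 0.65 for Col15a1. For Hspg2 r was 0.32 and 0.80, for Lama5 0.24 and 0.18, and for Col18a1 0.20 and 0.01. The negative r of Col18a1 was thus not seen within either side. These sides were not tested.

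**Figure D5:**
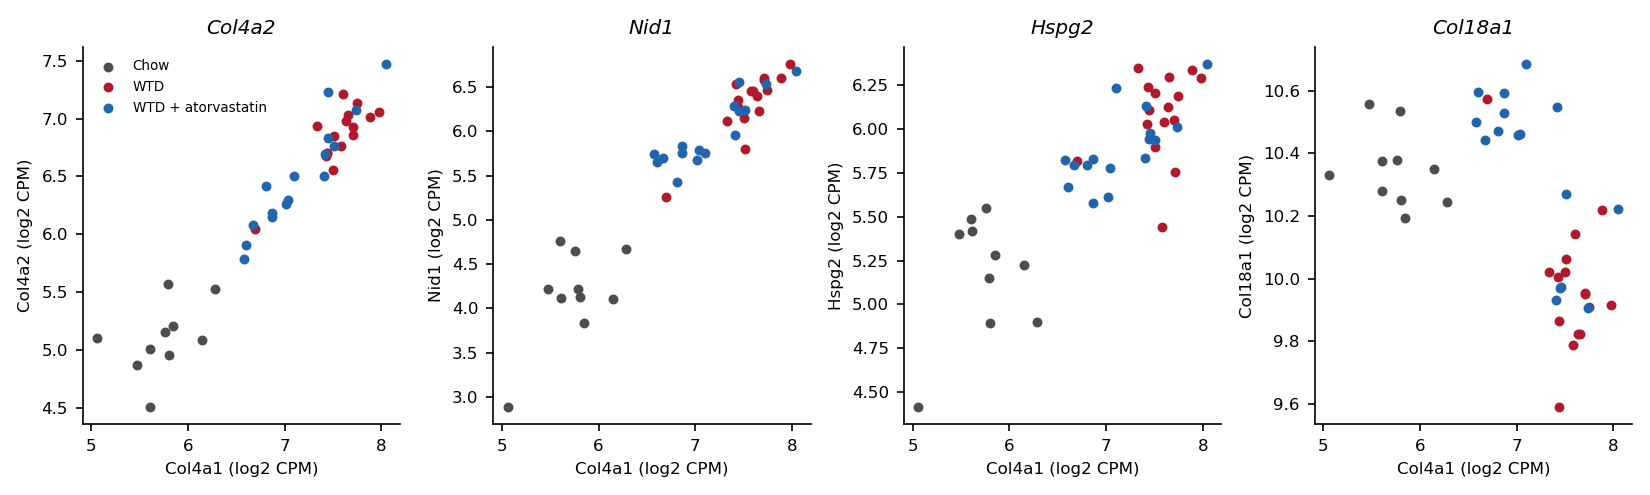
Log2 CPM of Col4a2, Nid1, Hspg2 and Col18a1 (vertical axes) against log2 CPM of Col4a1 (horizontal axes), with 1 point per mouse and a colour per group. The treated mice lie along a line in Col4a2 (r = 0.94), and in Col18a1 their r is -0.68. On either side of a gap in Col4a1 between 137 and 169 CPM, r for Col18a1 is 0.20 (9 mice) and 0.01 (7 mice).

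After subtraction of the group means, the 45 pairs of the 10 genes had r from -0.56 to 0.82 over the 42 mice, with a median of 0.27. The closest pair was Col4a1 with Col4a2 (r = 0.82), and Col18a1 was negatively related to each of the other 9, from -0.56 with Col4a1 to -0.08 with Hspg2. The genes outside the 10 whose pattern was most like Col4a1 were Col6a3 (r = 0.87), Col3a1 (0.84) and Col1a1 (0.83), those for Col4a2 were Col1a2 (0.86), Col5a2 (0.85) and App (0.80), and those for Nid1 were Col6a1 (0.83), Fstl1 (0.82) and Col1a1 (0.82). For Col15a1 they were Galns (0.80), Col5a2 (0.77) and Mmp2 (0.73). For Col18a1 they were 1300017J02Rik (0.91), Plg (0.89) and F2 (0.89), of which Plg and F2 encode the plasma proteins plasminogen and prothrombin, made by hepatocytes, and its r with Alb was 0.83. The 3 genes most like Lama4 (Fam174b, Socs5 and Fdxacb1) had r of 0.82 over all mice but 0.14 to 0.48 without the 8 libraries that missed weak genes, and for Hspg2 r went from 0.75 to 0.61 with Vat1 and from 0.72 to 0.57 with Zfp319. The closest genes to Lama5 were 4933427D14Rik, Plin4 and Lrrc14b (0.72 to 0.77, and 0.54 to 0.58 without the 8 libraries). Those closest to Lamb1 were Ltbp3, Tep1 and Dennd5a (0.70, 0.70 and 0.64, and 0.71, 0.49 and 0.35 without the 8 libraries). Those closest to Lamc1 were Abcb4 and Arf6 (0.65 and 0.59, and 0.66 and 0.61 without the 8 libraries). These correlations share libraries and depth and are descriptions.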

How the data were processed

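Liver mRNA of 42 mice was sequenced from strand-specific polyA libraries. The authors trimmed the reads with Trimmomatic, aligned them with STAR 2.5 to GRCm38 with the GENCODE vM19 annotation and counted them per gene with HTSeq 0.6.1p1. The strand setting of the counter is not given in the sources used here. The deposited values are read counts per gene, not normalized, and they were used as deposited. Summary lines of the counter that name no gene were left out (on average 2.28% without a feature, 5.96% ambiguous and 4.68% not aligned uniquely). Symbols were matched for 54409 of the 54446 identifiers. Gene counts per mouse had a median of 19421089.5, and each mouse is 1 replicate.

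Groups were taken from the sample labels. In edgeR 4.0.16 (R 4.3.3), weak genes were dropped by filterByExpr at a count of 10 and a total of 15, and the rest were normalized by TMM and fitted with the robust quasi-likelihood model over all 42 mice in 3 groups. Genes with a Benjamini-Hochberg adjusted p under 0.01 over all tested genes were called. Values per kb use the union of the exons. Ratios (21 tests) and relations (27 tests) used 2-sided permutation tests with 100000 resamples, computed with numpy 2.4.6 and scipy 1.17.1 and adjusted within each family, with a threshold of 0.05. On simulated counts for WTD against chow over 15312 genes, 117 of 200 genes with a log2 change of 1 were recovered and 0 unchanged genes were called. Named genes were the 10 members, up to 4 genes per list and comparison, taken by p, and the 3 genes most like each member over the 42 mice, of which some are not reported here. Genes named outside these rules were chosen after their values were seen. The members and the lists were chosen with earlier results of these data known.

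The results were recomputed with limma-voom and its sample weights (limma 3.58.1), with DESeq2 1.42.0, with other normalizations, filters, thresholds and samples, and the omission of each mouse in turn. Promoter windows came from RefSeq tables.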

Additional observations from a re-analysis of the deposited data

Results flagged for a closer look

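Among the 10 genes in the 10 chow-fed mice, 3 had a mouse far from the other 9 by Dixon's criterion, which by chance flags about 1 in 20 groups. Groups of 16 mice were not tested this way. Lama4 was lowest in AZ#5, at 0.859 CPM, where the next mouse had 7.82 CPM. Lamb1 was highest in AZ#2, at 39.0 CPM, where the next mouse had 22.0 CPM. AZ#2 was also the library with the largest share of missed weak genes, 59.7%. Lamc1 was highest in AZ#3, at 36.2 CPM, where the next mouse had 26.7 CPM.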

How the results depend on the processing

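On WTD against chow, the 10 calls held under all 9 alternative fits and without each of the 42 mice, and 5 genes remained when a log2 fold change of at least 1 was also asked for. For atorvastatin against WTD the count of 1 became 6 with limma-voom, 2 at an adjusted p under 0.05, 0 with a log2 fold change of at least 1, and 1 to 2 without single mice. Col4a1 was the second gene, called without Gen#25. For atorvastatin against chow the count of 8 became 4 with a log2 fold change of at least 1. The number of relations with Col4a1 that passed went from 9 to 4 without the 2 farthest mice. Of the ratio tests 9 of 21 passed.

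Fold changes and ratio differences near 0 turned sign, and so did values of r that were not near 0. Lamb1 in atorvastatin against WTD was -0.0371 with DESeq2, -0.0654 with limma-voom, -0.0374 with RLE, -0.0225 with upper-quartile normalization, -0.00324 with 2 groups in the fit, and -0.0251 to 0.0409 without single mice. Col18a1 in atorvastatin against chow was -0.0112 with upper-quartile normalization, -0.00723 with 2 groups in the fit, -0.0273 without the 8 libraries that missed weak genes, and -0.00866 to 0.0417 without single mice. Without those 8 libraries the ratio differences between treated and chow-fed mice were 0.0107 for Col4a2 to Col4a1 and -0.0567 for Hspg2 to Lamc1. Without them r with Col4a1 on chow was 0.57 for Lama5, -0.21 for Nid1 and -0.36 for Hspg2, against -0.30, 0.61 and 0.24 with all mice. Without the 2 farthest mice r on chow was 0.15 for Col15a1, 0.60 for Lama5, 0.10 for Lamb1, -0.35 for Nid1 and -0.43 for Hspg2. With all mice the same r were -0.37, -0.30, -0.55, 0.61 and 0.24. On WTD r without the 2 farthest mice was 0.28 for Col18a1, -0.11 for Lama4 and -0.0195 for Hspg2, against -0.50, 0.23 and 0.29 with all mice. The cause was not tested. No paired analysis was possible because the mouse numbers only name animals and do not link mice across groups. The lowest count of a gene in a mouse was 17, for Lama4 in AZ#5, whose library missed 46.4% of weak genes at a total of 21850293 gene counts.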
